A study of Mus musculus with 6 samples.

Results

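The 35 genes described here encode DNA repair proteins and were taken as a list of symbols spanning 7 repair pathways, by a rule that uses no measured value, though with earlier results of these data known. All 35 were matched by Ensembl gene ID in an expression table of 37224 mouse genes, and all 35 were among the 12588 genes that reached 1 RPKM (reads scaled by gene length in kilobases and by library size) in at least 1 library. The study sequenced RNA from mouse embryonic fibroblasts (MEF), connective tissue cells grown from embryos, with and without sodium arsenite. There were 4 groups with 1 library each: untreated wild-type cells, arsenite-treated wild-type cells, untreated Dot1L-/- cells and arsenite-treated Dot1L-/- cells, the last pair called null below. All cells were of C57BL/6 background, labelled as primary MEF, and grown in high-glucose DMEM with fetal bovine serum. The labels call the exposure low dose, and the protocol lists 5 and 10 μM for 24 h without saying which was sequenced. How the null allele was made, and whether each genotype came from 1 embryo or several, is not given in the sources used here.

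Cells repair DNA by pathways that each deal with one kind of lesion. The kinases Atm and Atr sense broken or stalled DNA and switch on the response. Homologous recombination copies a sister strand to mend a double-strand break and works mainly in S and G2 phase, while end joining ligates the broken ends directly. Base excision repair removes oxidised, deaminated or alkylated bases and shares its late steps with the repair of single-strand breaks. Nucleotide excision removes bulky lesions, mismatch repair corrects replication errors, and the Fanconi pathway unhooks crosslinks between strands. Arsenite is known to raise reactive oxygen species and to displace zinc from zinc finger proteins, among them the nick sensor Parp1 and the nucleotide excision factor Xpa. Dot1L methylates a lysine in the globular part of histone H3 in the bodies of transcribed genes.

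Many repair genes start close to the start of a gene that runs the other way. Whether such pairs share a promoter was not tested. Among the 28 repair genes with an entry in the RefSeq promoter table (build GRCm38.p6), 14 (50.0%) had a coding gene on the opposite strand whose start lay within 1000 bases upstream, against 1250 of 9012 coding genes past the expression filter (13.9%). Rad50, Nbn, Xrcc2, Prkdc, Polb, Ercc3 and Fancd2 are not among the 28. The upstream stretches of 5 genes are printed, and the genes were picked for expression differences described below. Brca1 and Palb2 were low in null cells, and Apex1 differed in its response between genotypes. Atm and Parp1 had the lowest arsenite folds of the list in both genotypes, as log2 of RPKM + 1. The stretches were not tested for a link to these differences. Each is written 5′ to 3′ on the gene's own strand, lies outside every annotated coding gene, and has in capitals the letters CCAAT, known as the NFY motif, and GGGCGG, known as the SP1 motif, on either strand.
Brca1 promoter, chr11:101551956-101552105, minus strand: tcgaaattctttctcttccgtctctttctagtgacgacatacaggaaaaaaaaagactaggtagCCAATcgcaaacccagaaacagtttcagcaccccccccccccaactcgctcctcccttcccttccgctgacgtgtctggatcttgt
Palb2 promoter, chr7:122132981-122133040, minus strand: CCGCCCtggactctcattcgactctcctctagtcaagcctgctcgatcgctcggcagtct
Apex1 promoter, chr14:50924894-50924948, plus strand: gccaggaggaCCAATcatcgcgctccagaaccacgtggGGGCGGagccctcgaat
Atm promoter, chr9:53536829-53536888, minus strand: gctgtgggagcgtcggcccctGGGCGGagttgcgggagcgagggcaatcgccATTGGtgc
Parp1 promoter, chr1:180568741-180568890, plus strand: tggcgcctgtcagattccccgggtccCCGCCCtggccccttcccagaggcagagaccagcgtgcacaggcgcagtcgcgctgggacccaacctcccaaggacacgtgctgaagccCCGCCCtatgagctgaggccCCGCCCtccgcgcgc
The Brca1 stretch fills nearly all of the 152 bases between the starts of Brca1 and Nbr1, and the Apex1 stretch all bases but the starts between Apex1 and Osgep, whose starts are 56 bases apart. The Parp1 stretch holds the SP1 letters 3 times and no CCAAT. Over the full promoter windows, which also take in the first bases after the start, SP1 letters occurred in 22 of 28 repair genes (78.6%, against 70.7% of expressed coding genes) and CCAAT in 18 (64.3% against 43.7%). The letters GCATGCGC, known as the NRF1 motif, occurred in 5 (17.9% against 6.32%), CCGGAAGT, known as an ETS motif, in 5 (17.9% against 9.65%), and TTTCGCGC, known as an E2F motif, in 2, Rad51c and Nthl1 (7.14% against 0.788%). Both strands were searched and no motif was required to be free of overlap with another. A match is a run of letters and not evidence of binding. The promoters of repair genes held a median of 25.0 CpG dinucleotides, and those of all coding genes, expressed or not, 13.0. The median for expressed coding genes alone is not given here. The choice of background matters: SP1 letters occurred in 49.2% of all coding genes and in 70.7% of expressed ones.

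The libraries differed in depth and in how their reads were spread over genes. Whole reads recovered from the RPKM values gave 62972880 and 64699847 reads for the wild-type and null controls, and 10833103 and 11879632 for the arsenite libraries, 5.81 and 5.45 times fewer. RPKM values summed to 323290 and 353283 in the controls and to 622139 and 662061 with arsenite, so that an unchanged share of all RPKM would appear 1.92 or 1.87 times higher with arsenite. Dot1l itself stood at 30.4, 5.71, 9.59 and 1.24 RPKM in wild-type control, wild-type arsenite, null control and null arsenite cells, the order used for every set of 4 values below. Dot1l transcripts were thus lower in null cells but still counted, and whether the counted exons lie outside the deleted part is not given. Of 11 fibroblast markers, 9 passed the filter, with summed RPKM of 3218, 5021, 3686 and 12172, of which S100a4 alone gave 688, 4191, 949 and 10957. The other markers mostly went the other way: 7 of the 9 were at least 2-fold lower with arsenite in wild type (median log2 fold -2.62) and 4 in null cells (median -0.88), among them Fn1, at 565, 30.7, 1411 and 53.6 RPKM, and Dcn, at 60.7, 3.85, 19.4 and 5.94. Thy1 was listed at 0 in all 4 libraries, and the part of these markers in the repair results was not tested. Macrophage, epithelial, endothelial and pluripotent markers summed to between 0.0601 and 9.28 RPKM per list and library, and Epcam was listed at 0 throughout. With 1 library per group no replicate error can be estimated, no p-value is given, and the 95% intervals below cover the counting of reads only.

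**Figure D1:**
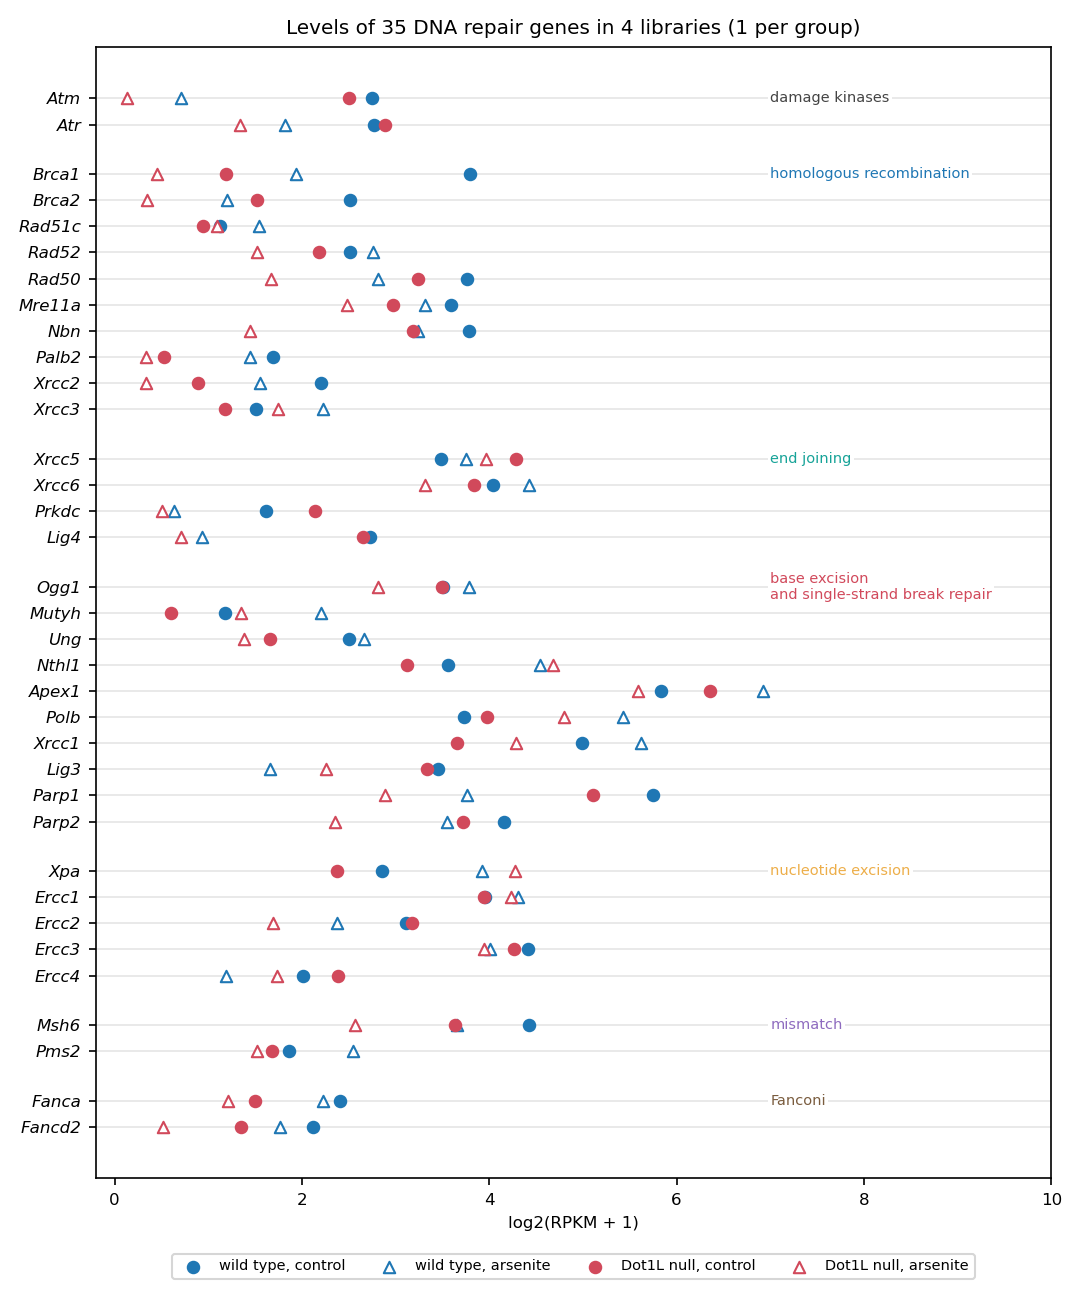
Level of each of the 35 repair genes, as log2(RPKM + 1), in the 4 libraries, grouped by pathway. Circles are untreated and triangles arsenite-treated cells, blue for wild type and red for Dot1L null. Of the 35 genes, 24 have their lowest level in the null arsenite library. The share of all genes that are lowest there is not given here.

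Levels per length spanned a wide range. In wild-type control cells the lowest gene was Rad51c at 1.18 RPKM and the highest Apex1 at 56.1, with a median of 7.62 over the 35 genes. Medians in the other libraries were 5.32, 6.41 and 2.24 RPKM. Summed over all 35 genes, RPKM came to 401.3, 435.5, 334.1 and 245.5, and on the TPM scale, on which every library has the same total, to 1241, 700.0, 945.7 and 370.9. The order of the arsenite and control libraries of wild type therefore depends on the scale: the arsenite library was the higher of the pair in RPKM and the lower in TPM. The null arsenite library was lowest on both. Base excision genes made up the largest share of repair RPKM in every library, at 51.38, 64.17, 54.75 and 57.30%, and homologous recombination genes 16.90, 9.759, 10.05 and 6.125%. Between genotypes and treatments, 16 genes were highest in wild-type control cells, 12 in wild-type arsenite, 5 in null control and 2 in null arsenite. These counts are in RPKM and depend on the scale too, and the shares of all genes highest in each library are not given here.

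Atm and Atr, the 2 kinases that start the damage response, were both lower with arsenite in both genotypes. Atm (ENSMUSG00000034218, chr9:53437122-53536828) stood at 5.70, 0.634, 4.68 and 0.0977 RPKM. Both arsenite libraries lay far below both controls, and the null arsenite value rested on 12 reads. The arsenite value was 8.99-fold lower in wild type (7.11 to 11.5) and 47.9-fold lower in null cells (27.4 to 92.8), or -2.04 and -2.37 as log2 of RPKM + 1, the scale of every log2 value below. Atr stood at 5.81, 2.53, 6.41 and 1.53 RPKM, a log2 difference of -0.95 in wild type and -1.55 in null cells. With the length trend removed, Atr turned to 0.44 in wild type and stood at -0.20 in null cells, and Atm at -0.60 and -0.99, so that neither was past 2-fold. The controls of the 2 genotypes were close for both kinases, at -0.24 for Atm and 0.12 for Atr.

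All 10 homologous recombination genes were lower in null than in wild-type cells, untreated and with arsenite, except that untreated Rad51c stood at 0.03 once the trend with gene length described below was removed. By at least 2-fold, 3 were lower untreated, where 14.7% of all genes past the filter were, and 6 with arsenite, where 16.9% were. With the length trend removed the counts were 2 and 2, beside 10.9 and 9.03% of all genes. Brca1 (ENSMUSG00000017146, chr11:101488761-101551955), which with its partners directs broken ends into recombination, stood at 12.9, 2.84, 1.29 and 0.367 RPKM. Every null value lay below both wild-type values. Untreated null cells had 10.0-fold less Brca1 per length than wild-type cells (9.28 to 10.8), and with arsenite 7.74-fold less (5.47 to 11.2). The arsenite library was 4.54-fold lower than control in wild type (4.01 to 5.16) and 3.50-fold lower in null cells (2.52 to 5.02). With the length trend removed, the log2 difference of Brca1 was -0.44 in wild type and turned to 0.62 in null cells. Palb2 (chr7:122107262-122132980), which bridges Brca1 and Brca2, stood at 2.24, 1.72, 0.447 and 0.264 RPKM and was 5.01-fold lower in untreated null cells (4.22 to 5.99). Brca2, a tumour suppressor of the same pathway, stood at 4.71, 1.30, 1.86 and 0.275 RPKM. Its untreated genotype difference was a 2.53-fold lower RPKM (2.38 to 2.71), which lay just short of 2-fold on the log2(RPKM + 1) scale, and its arsenite differences were -1.31 in wild type and -1.16 in null cells, which became 0.15 and 0.24 once the length trend was removed.

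Xrcc2, also a recombination factor, stood at 3.62, 1.93, 0.859 and 0.258 RPKM and was 4.21-fold lower in untreated null cells (3.70 to 4.81). Rad51c and Xrcc3 differed less between genotypes: Rad51c stood at 1.18, 1.92, 0.924 and 1.13 RPKM, and Xrcc3 at 1.84, 3.66, 1.27 and 2.36, both with a higher RPKM with arsenite in both genotypes. On the TPM scale the arsenite differences were -0.15 and -0.31 for Rad51c and 0.04 and -0.01 for Xrcc3. Rad50, Mre11a and Nbn form the complex that first binds and trims broken ends. Nbn stood at 12.8, 8.42, 8.13 and 1.73 RPKM, so that its null arsenite value stood apart from the other 3. The arsenite difference was -0.56 in wild type and -1.74 in null cells, a difference between the genotypes of -1.19, and Nbn in arsenite-treated null cells was 4.87-fold below arsenite-treated wild type (3.59 to 6.72). Rad50 stood at 12.6, 6.03, 8.44 and 2.19 RPKM and Mre11a at 11.1, 8.92, 6.83 and 4.59. Both were lowest in the null arsenite library and highest in the wild-type control. Rad52, an annealing protein, stood at 4.72, 5.78, 3.54 and 1.87 RPKM, higher with arsenite in wild type (-0.56 on the TPM scale) and lower in null cells.

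The lower homologous recombination levels of null cells went with lower levels of genes of the cell cycle. All 20 genes of a proliferation list passed the filter, and their summed RPKM was 963, 781, 460 and 201. None was 2-fold higher in null cells, while 11 were lower untreated (median log2 -1.06) and 19 with arsenite (median -1.77). Over all genes 14.7 and 16.9% were lower, with medians of -0.17 and -0.28. With the length trend removed 8 and 15 of the 20 were lower, beside 10.9 and 9.03% of all genes. Top2a stood at 62.7, 43.6, 14.6 and 7.36 RPKM and Mki67 at 48.0, 14.9, 8.16 and 6.22. The 2 genotypes thus differed in a set of genes used as a measure of proliferating cells in the same direction as in recombination genes; its part in the result was not tested, and in bulk RNA fewer cells in cycle and less RNA per cell cannot be told apart.

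End joining genes did not share 1 pattern. Xrcc5 and Xrcc6 encode the Ku heterodimer that caps broken ends. Xrcc5 stood at 10.2, 12.5, 18.5 and 14.6 RPKM, higher in null than in wild-type control cells by 0.80 log2, and Xrcc6 at 15.5, 20.4, 13.3 and 8.93. Both had a higher RPKM with arsenite in wild type and a lower one in null cells, and the wild-type values turned negative (-0.61 and -0.52) on the TPM scale. Xrcc6 in arsenite-treated cells was 2.28-fold lower in null than in wild type (2.04 to 2.55). Its annotated span overlaps that of Desi1 on the opposite strand. The same holds for Xrcc3 and Klc1, Lig3 and Rffl, Ercc1 and Cd3eap, Ercc2 and Klc3, and Msh6 and Fbxo11, and since the strand setting of the counting is not given, values of these genes are uncertain. Prkdc, the catalytic kinase subunit, stood at 2.06, 0.554, 3.41 and 0.418 RPKM, and Lig4, the ligase of the pathway, at 5.62, 0.911, 5.31 and 0.633. For these 2 genes both arsenite libraries were far below both controls. Untreated Prkdc was higher in null than in wild-type cells, with a ratio of 1.65 (1.56 to 1.76), and its wild-type arsenite fold turned to 0.52 with the length trend removed. Lig4 was 6.16-fold lower with arsenite in wild type (4.54 to 8.59) and 8.39-fold lower in null cells (5.92 to 12.3).

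Base excision and single-strand break repair, the pathway for oxidised bases, held genes that were higher with arsenite and genes that were lower. Of its 10 genes, 3 were at least 2-fold higher and 2 lower in wild type, and 1 was higher and 3 lower in null cells. Of all genes past the filter, 12.8% were higher and 35.7% lower in wild type, and 15.2 and 37.1% in null cells. The 3 higher in wild type became 1 with the length trend removed and 0 on the TPM scale, beside 15.9 and 5.38% of all genes. Polb, the gap-filling polymerase, stood at 12.3, 41.9, 14.7 and 26.8 RPKM, with both arsenite values above both controls. The ratio was 3.40 in wild type (3.06 to 3.78) and 1.83 in null cells (1.63 to 2.05), and the null log2 value turned to -0.03 on the TPM scale. Nthl1, a glycosylase for oxidised pyrimidines, stood at 10.8, 22.3, 7.70 and 24.7 RPKM, and Mutyh, which removes adenine paired with oxidised guanine, at 1.26, 3.60, 0.521 and 1.55. Nthl1 reached 2-fold in null cells (1.56) and lay just short of it in wild type (0.98). With the length trend removed these Nthl1 values were 0.74 and 0.10, and on the TPM scale 0.72 and 0.10. Ogg1, the glycosylase for oxidised guanine itself, stood at 10.4, 12.8, 10.3 and 6.04 RPKM, and Ung, which removes uracil, at 4.66, 5.32, 2.17 and 1.61. The spans of Ung and Ogg1 also overlap genes of the opposite strand, Alkbh2 at 3.03, 22.6, 1.39 and 10.6 RPKM and Camk1 at 10.1, 12.6, 17.1 and 16.2.

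Apex1 (ENSMUSG00000035960, chr14:50924949-50927188), the endonuclease that cuts at the site a glycosylase has emptied, had the widest gap between the genotypes in its arsenite response. Its RPKM was 56.1, 120, 81.2 and 47.2, from 5022, 1846, 7473 and 797 reads. The wild-type arsenite library was the highest of the 4 and the null arsenite library the lowest. The ratio of arsenite to control was 2.14 in wild type (2.02 to 2.25) and 0.581 in null cells (0.539 to 0.625), a log2 difference between the effects of -1.85. With RPKM sums made equal the wild-type effect was 0.15 and the null effect -1.66, so the sign of the wild-type effect held but its size did not. Xrcc1, the scaffold of single-strand break repair, stood at 30.9, 48.2, 11.6 and 18.5 RPKM and was 2.66-fold lower in untreated null cells (2.51 to 2.82) and 2.61-fold lower with arsenite (2.34 to 2.91); the arsenite log2 fold was 0.63 in each genotype, and -0.29 and -0.22 on the TPM scale. Its partner Lig3, a ligase, stood at 9.93, 2.15, 9.11 and 3.79 RPKM.

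Parp1 (ENSMUSG00000026496, chr1:180568891-180600999), the nick sensor that builds poly(ADP-ribose) chains, had the highest level per length of the list after Apex1 in wild-type control cells and, with Atm and Lig4, a log2 fold with arsenite among the lowest of the list in both genotypes. It stood at 52.9, 12.6, 33.4 and 6.39 RPKM, from 12820, 525, 8310 and 292 reads. Both arsenite values lay below both controls. It was 4.20-fold lower with arsenite in wild type (3.85 to 4.59) and 5.23-fold lower in null cells (4.65 to 5.89). Parp2, a related enzyme, stood at 16.9, 10.7, 12.2 and 4.10 RPKM, with its lowest value in the null arsenite library.

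None of the 5 nucleotide excision genes was past 2-fold between genotypes, untreated or with arsenite. Of all genes past the filter, 6.45% were higher and 14.7% lower in null cells untreated, and 8.75 and 16.9% with arsenite. Xpa, which verifies the lesion and is itself a zinc finger protein, stood at 6.25, 14.2, 4.18 and 18.3 RPKM. Both arsenite values lay above both controls, and the ratio was 2.28 in wild type (1.98 to 2.61) and 4.37 in null cells (3.83 to 4.99). On the TPM scale the log2 differences of Xpa were 0.22 and 1.10. Ercc1, the partner of the nuclease Ercc4, stood at 14.5, 18.8, 14.4 and 17.8 RPKM, and Ercc4 at 3.02, 1.28, 4.24 and 2.33. Ercc2 and Ercc3, helicases of the transcription factor TFIIH, differed from each other: Ercc2 stood at 7.62, 4.18, 8.01 and 2.24 RPKM and Ercc3 at 20.3, 15.1, 18.2 and 14.4. Ercc2 was 3.57-fold lower with arsenite in null cells (2.57 to 5.12), and Ercc3 1.26-fold lower (1.15 to 1.39).

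Both mismatch and both Fanconi genes were at least 2-fold lower in null than in wild-type cells with arsenite, where 16.9% of all genes were. None stayed past 2-fold when folds were centred on the all-gene median, nor when the length trend was removed. Fold and length were hardly correlated over all genes in this comparison (Spearman -0.03). On the TPM scale Msh6 (-1.13), Pms2 (-1.01) and Fancd2 (-1.13) stayed past 2-fold, and Fanca (-0.98) did not. With a pseudocount of 0.1, Msh6 (-1.22), Pms2 (-1.32), Fanca (-1.42) and Fancd2 (-2.22) were each past it. Msh6, which recognises mismatches, stood at 20.4, 11.6, 11.4 and 4.91 RPKM, and Pms2, a nuclease partner in the same pathway, at 2.64, 4.84, 2.20 and 1.87. Msh6 was lower with arsenite in both genotypes (-0.76 and -1.07), while Pms2 was higher in wild type (0.68, and -0.06 on the TPM scale) and not in null cells (-0.15). Fanca, part of the core ligase complex, stood at 4.31, 3.66, 1.82 and 1.31 RPKM, and Fancd2, its substrate, at 3.35, 2.40, 1.55 and 0.435. Every null value of both Fanconi genes lay below both wild-type values. In arsenite-treated cells Fancd2 was 5.51-fold lower in null than in wild type (3.93 to 7.90) and Fanca 2.80-fold lower (2.28 to 3.45). The spans of Fanca and Zfp276 overlap, so the value of Fanca is uncertain too.

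**Figure D2:**
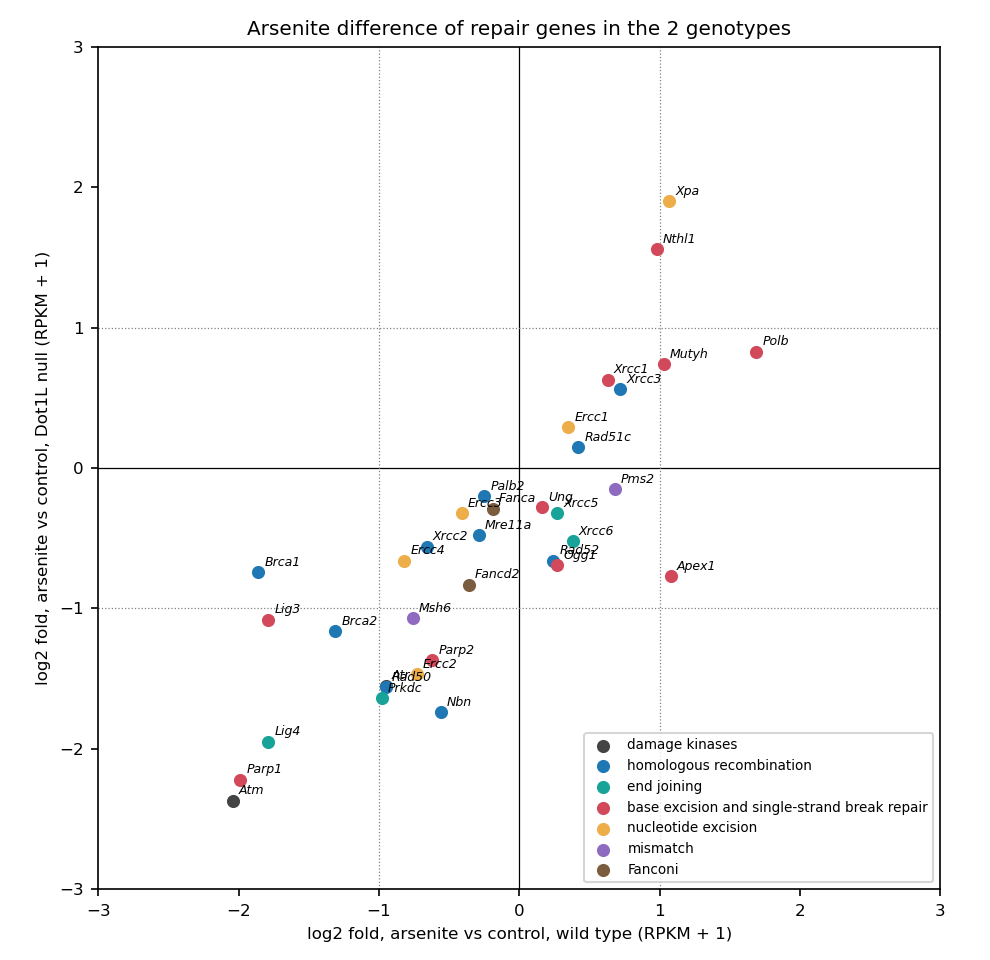
Log2 fold of arsenite against control in wild-type cells (x axis) and in null cells (y axis) for the 35 repair genes, on the log2(RPKM + 1) scale, coloured by pathway; the axes share no library. Atm, Brca2, Lig4, Lig3 and Parp1 are at least 2-fold lower on both axes, Xpa is higher on both, and Apex1 lies at 1.08 on the x axis and -0.77 on the y axis.

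With arsenite, 4 of 35 repair genes were at least 2-fold higher in wild type, where 12.8% of all genes past the filter were, and 6 were lower, where 35.7% of all genes were. In null cells 2 were higher, beside 15.2% of all genes, and 12 lower, beside 37.1%. The members' counts are 11.4 and 17.1% of the list in wild type and 5.71 and 34.3% in null cells. Higher in wild type were Mutyh, Apex1, Polb and Xpa, and lower were Atm, Brca1, Brca2, Lig4, Lig3 and Parp1. Lower in null cells were Atm, Atr, Brca2, Rad50, Nbn, Prkdc, Lig4, Lig3, Parp1, Parp2, Ercc2 and Msh6, and higher were Nthl1 and Xpa. Median log2 folds of the 35 genes were -0.29 in wild type and -0.66 in null cells, beside -0.56 and -0.53 for all genes. Of genes past 2-fold in the whole table, 26.4% were higher in wild type and 29.0% in null cells, which became 52.8 and 49.6% when folds were centred on the all-gene median, 50.8 and 47.5% after removing the trend with length, and 8.38 and 11.4% on the TPM scale. The 5 genes lower with arsenite in both genotypes were Atm, Brca2, Lig4, Lig3 and Parp1, and Xpa was the only gene higher in both. The share of all genes past 2-fold in both genotypes is not given here, so this overlap has no background to stand beside.

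Gene length moved with the response. The length that divides each gene's reads was recovered from the RPKM values and may be a whole fraction of the one used. Repair genes ran from 1080 bases for Nthl1 to 12674 for Prkdc, with a median of 4254 beside 3434 for all genes. Over all 12155 genes of at least 200 bases the Spearman correlation of log2 fold with length was -0.56 in wild type and -0.49 in null cells; over the 35 repair genes it was -0.59 and -0.36. These are correlations across genes, which are not replicates. Base excision genes had a median length of 2094 bases, nucleotide excision 2835, end joining 4365, homologous recombination 5295, mismatch 6348, Fanconi 8214 and the kinases 9206. Once the trend of all genes with length was removed, 8 repair genes were at least 2-fold higher and 2 lower in wild type, and 4 higher and 6 lower in null cells, with medians of 0.44 and 0.20; of all genes 15.9 and 15.3% were higher and lower in wild type and 19.5 and 21.5% in null cells. Parp1 (-1.28 and -1.46) and Ercc2 (-1.15 and -1.97) were then the lower genes common to both genotypes, and Mutyh, Xpa, Pms2 and Fanca the higher. The Ercc2 values rest on a recovered length of 1390 bases. They would move toward 0 if that is a fraction of the length used, so Ercc2 is uncertain here. For this overlap too, the share of all genes is not given. Apex1 kept opposite signs, at 0.70 and -1.22. The reason for the trend was not tested.

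**Figure D3:**
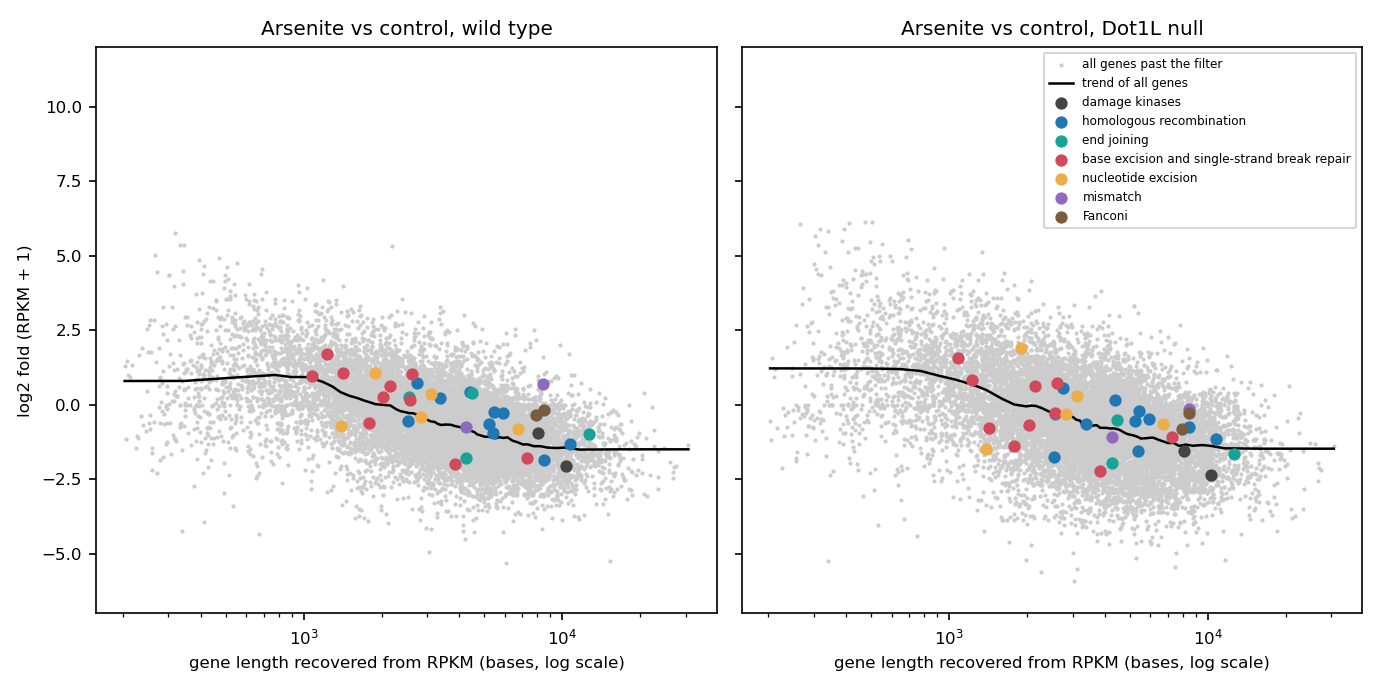
Log2 fold of arsenite against control on the log2(RPKM + 1) scale (y axis) against recovered gene length in bases on a log axis, for wild type (left) and null cells (right). Grey points are all genes past the filter of at least 200 bases, the line is their running median and coloured points are the repair genes. The line runs from above 0 at short genes to below 0 at long genes, and Parp1 lies below the line in both panels.

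Between genotypes without arsenite, 4 of 35 repair genes were at least 2-fold lower in null cells (14.7% of all genes were) and 0 were higher (6.45% of all genes). The 4 were Brca1, Palb2, Xrcc2 and Xrcc1. With arsenite 15 were lower (16.9% of all genes) and 0 higher (8.75% of all genes). These were Brca1, Rad52, Rad50, Nbn, Palb2, Xrcc2, Xrcc6, Ung, Apex1, Xrcc1, Parp2, Msh6, Pms2, Fanca and Fancd2. The list stands at 11.4 and 42.9% lower, beside the shares of all genes, and its medians were -0.34 and -0.85 beside -0.17 and -0.28. Counting genes below 0 rather than past 2-fold, 28 of 35 repair genes (80.0%) were lower in null cells untreated and 30 (85.7%) with arsenite, beside 59.9 and 65.4% of all genes. Upon centring, 4 of the 15 remained at least 2-fold lower, and after removing the length trend also 4, which were Brca1, Nbn, Apex1 and Xrcc1. At these settings 9.64 and 9.03% of all genes were lower, beside 11.4% of the repair genes, so that the count lay near the background. The median with the trend removed was still -0.53 for the repair genes, beside 0.00 for all genes. The other settings kept more genes lower: 14 on the TPM scale (16.2% of all genes) and 19 with a pseudocount of 0.1 (28.6%). A filter of 5 RPKM gave 10 of 24 (19.5%), no filter 15 (9.85%) and thinning to the shallowest library 15 (16.8%). The share of higher genes among all called genes moved from 30.5 to 43.9% untreated and from 34.1 to 57.1% with arsenite upon centring, and to 45.1 and 57.7% upon removing the trend.

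**Figure D4:**
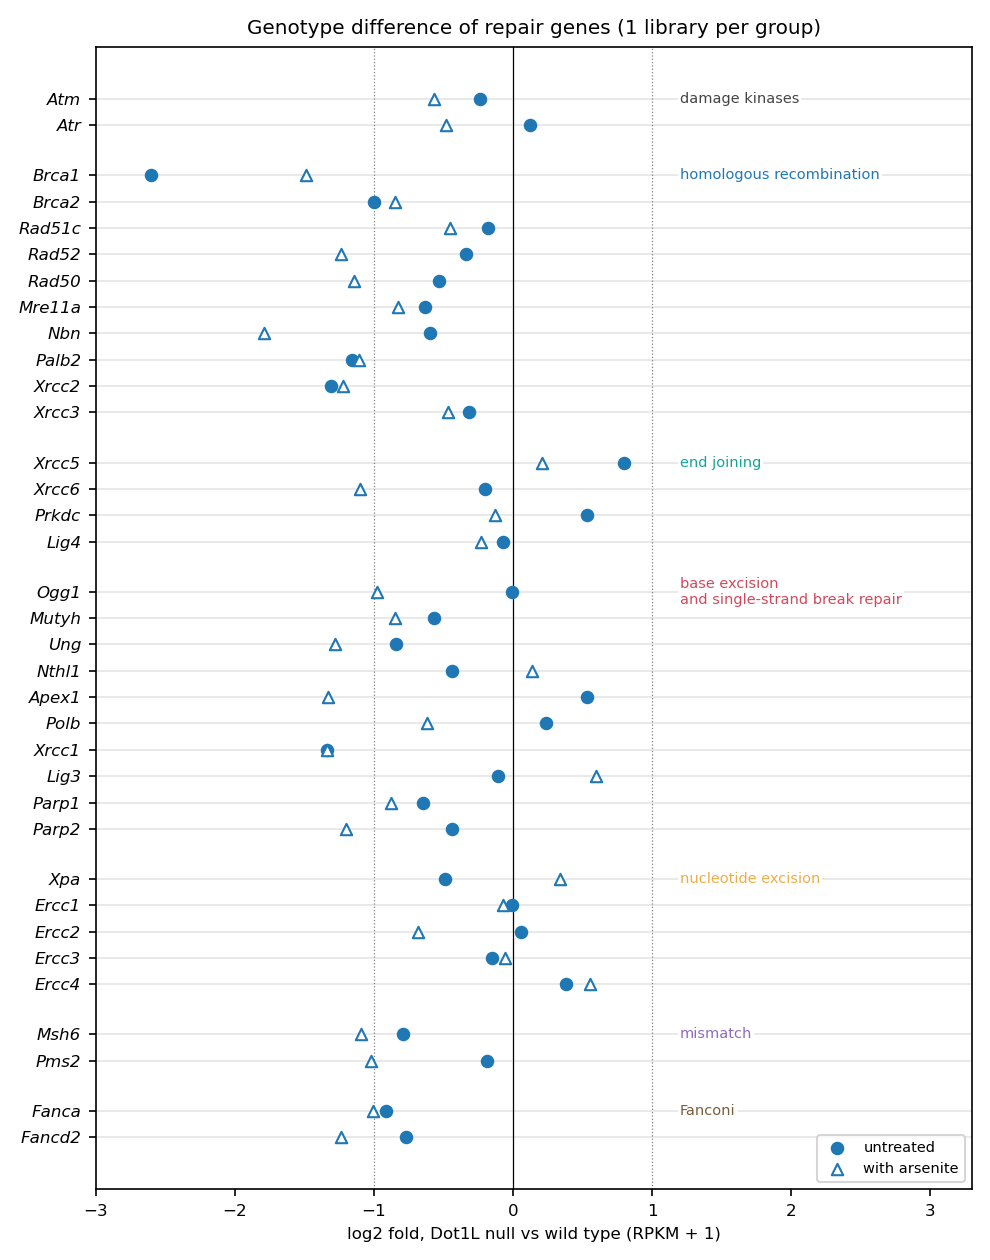
Log2 fold of Dot1L null against wild type for each repair gene, untreated (filled circles) and with arsenite (open triangles), on the log2(RPKM + 1) scale; dotted lines mark 2-fold. All homologous recombination genes lie left of 0 under both conditions, and no repair gene lies to the right of the 2-fold line.

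The arsenite effect differed by at least 2-fold between the genotypes for 3 of the 35 genes, 1 higher in null cells (12.1% of all genes) and 2 lower (12.8% of all genes). Brca1, 1.11, was less reduced in null cells on the log2(RPKM + 1) scale, from a control value that was already low; with a pseudocount of 0.1 in place of 1 no repair gene was past 2-fold in that direction. Nbn, -1.19, and Apex1, -1.85, were the 2 lower. The 4 comparisons share libraries, so these differences are not independent of the ones above.

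Other genes of the same pathways were counted the same way. Of 80 other repair genes, 78 passed the filter. With arsenite 4 were at least 2-fold higher and 20 lower in wild type (median -0.47), and 4 and 25 in null cells (median -0.66), beside 12.8 and 35.7%, and 15.2 and 37.1%, of all genes. Between genotypes, null against wild type, 1 was higher and 22 lower untreated (median -0.62), beside 6.45 and 14.7% of all genes, and 1 and 26 with arsenite (median -0.70), beside 8.75 and 16.9%. With the length trend removed, 11 and 13 were lower in null cells, beside 10.9 and 9.03% of all genes. The lowest with arsenite in wild type were Rif1, Topbp1 and Hus1, with log2 folds of -2.76, -2.23 and -2.02, and in null cells Topbp1, Rif1 and Ercc6, at -3.53, -2.44 and -2.37. Topbp1, an activator of Atr, stood at 41.1, 7.98, 22.8 and 1.06 RPKM. The highest in both were Alkbh2 (2.55 and 2.29), Gtf2h5 (1.93 and 1.41) and Nhej1 (1.11 and 1.62). Alkbh2 reverses alkylation damage directly.

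By the distance between their centred log2(RPKM + 1) values over the 4 libraries, Atm and Parp1 were nearest to each other (0.38), with Lig4 next for both (0.43 from Atm and 0.66 from Parp1), against median distances to the other members of 2.02 and 1.87. Brca1 was nearest to Xrcc2 (1.16) and Brca2 (1.22), with a median distance of 2.10. Each distance is over 4 libraries and depends on the 1 added to RPKM, which shrinks folds most at low levels. Atm stood at 0.0977 RPKM in the null arsenite library, from 12 reads, and Parp1 at 6.39. As plain RPKM ratios, the falls with arsenite were not alike. In null cells they were 47.9-fold for Atm (27.4 to 92.8) and 5.23-fold for Parp1 (4.65 to 5.89). In wild type they were 8.99-fold (7.11 to 11.5) and 4.20-fold (3.85 to 4.59). Distances on other scales are not given here.

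Divergent partners followed their repair genes in some pairs and not in others. Nbr1, across from Brca1, stood at 19.2, 11.2, 18.5 and 5.83 RPKM, so its null control was close to its wild-type control where Brca1 was 10.0-fold lower. Dctn5, across from Palb2, stood at 22.1, 31.8, 15.4 and 17.1 RPKM. Osgep, across from Apex1, stood at 7.37, 8.85, 4.13 and 7.30 RPKM, with a null arsenite value above its null control where Apex1 was below. Npat, across from Atm, stood at 7.44, 2.70, 7.03 and 0.849 RPKM, and Abhd13, across from Lig4, at 7.80, 3.17, 14.4 and 2.38, both lowest in the null arsenite library as their repair genes were.

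**Figure D5:**
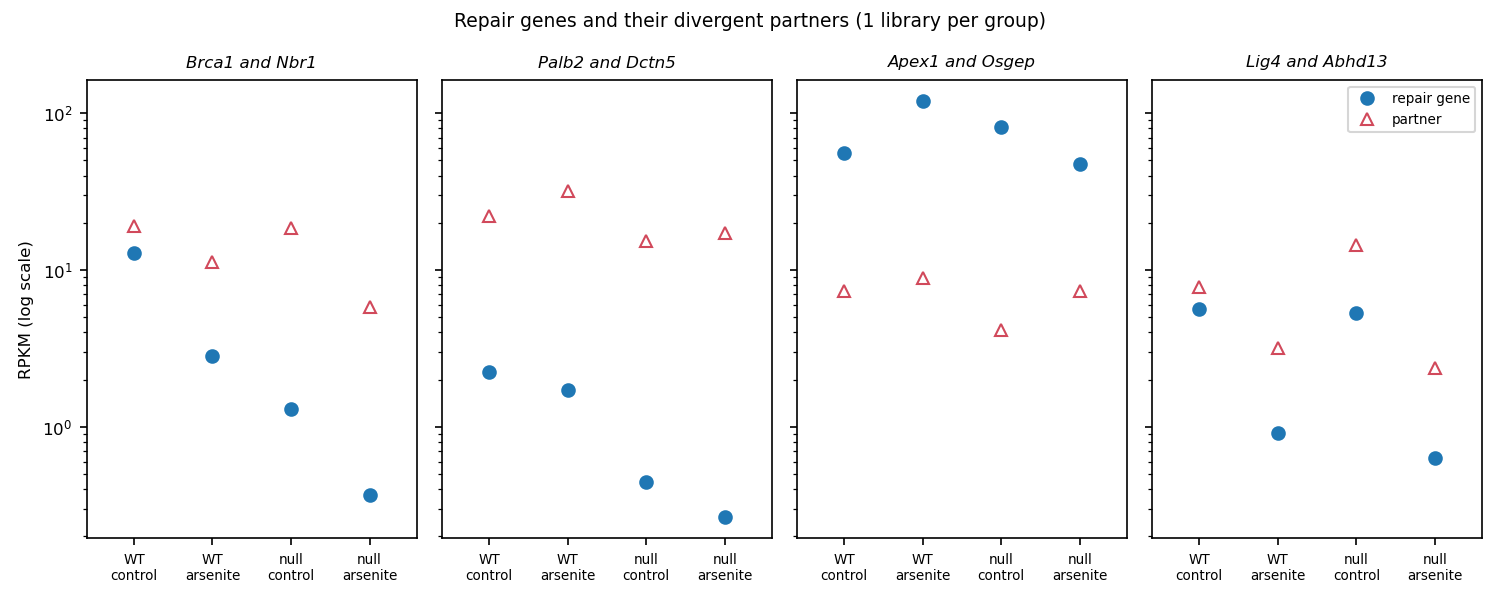
RPKM on a log axis of 4 repair genes (filled circles) and of the coding gene that starts on the opposite strand next to each (open triangles), in the 4 libraries. Brca1 is 10.0-fold lower in null control than in wild-type control cells and Nbr1 is not, while Lig4 and Abhd13 are both lower with arsenite in both genotypes.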

How the data were processed

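RNA from 4 libraries, 1 per group, was analysed; the H3K27ac ChIP libraries of the series are not analysed here. The authors deposited RPKM values per Ensembl gene for the 4 libraries. TopHat, HTSeq, Bowtie and deepTools and the build mm10 are named, with no roles, per the submitters' processing notes. Libraries were depleted of ribosomal RNA and made strand-specific, per the labels' protocols, while the molecule label reads polyA RNA; the strand setting of the counting is not given in the sources used here. Whole reads were recovered from the RPKM values: the value of 1 read per library came from small RNA genes, and a gene's length is the shortest that makes its 4 values whole (relative tolerance 1e-12), which can be a whole fraction of the length used. For 359 of 539 small RNA genes the length so found was the annotated one. Folds are log2 of RPKM + 1, over the 12588 genes with at least 1 RPKM in any library, called at 2-fold. Ratios of reads have 95% intervals from the exact binomial (Clopper-Pearson) method, given both counts; reads carry no molecular identifiers, so they cover counting error only. Gene positions and promoters are from RefSeq GRCm38.p6. Of 37224 IDs, 35449 had a symbol. Every listed gene was named; of the 80 other repair genes the 3 highest and 3 lowest per arsenite comparison were named. The members and all lists were chosen with earlier results of these data known. Alternatives were a pseudocount of 0.1, no filter, a filter of 5 RPKM, centring on the median of all genes, removal of a running-median trend with length (60 bins), thinning to the shallowest library and, added after seeing the data, equal RPKM sums (the TPM scale). The analysis was tested on simulated data and used Python 3.11.15, numpy 2.4.6, pandas 2.3.3, scipy 1.17.1 and matplotlib 3.10.9.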

Additional observations from a re-analysis of the deposited data

Results flagged for a closer look

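In 6 repair genes the arsenite library lay above its control in wild type and below it in null cells, with the counting intervals of both ratios away from 1. With 1 library per group, the difference between genotypes was not tested. Apex1 had the widest gap, with log2 effects of 1.08 and -0.77 and a difference of -1.85. Ogg1 differed by -0.96, Rad52 by -0.90, Xrcc6 by -0.90, Pms2 by -0.84 and Xrcc5 by -0.59. On the TPM scale, with RPKM sums made equal, the wild-type effects of Rad52 (-0.56), Xrcc5 (-0.61), Xrcc6 (-0.52), Ogg1 (-0.60) and Pms2 (-0.06) were negative and that of Apex1 (0.15) positive. Upon centring on the all-gene median the null effects of Xrcc5 (0.21), Xrcc6 (0.01) and Pms2 (0.38) were positive, and with the length trend removed those of Rad52 (0.09), Xrcc6 (0.30) and Pms2 (1.21). Opposite signs were thus kept under all 3 settings by Apex1 alone of the 6. The 6 genes were picked for opposite signs in the 2 genotypes, so their differences are a description. The share of all genes with opposite signs is not given here.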

How the results depend on the processing

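No paired analysis was possible because the labels give no replicate numbers and each group holds 1 library; for the same reason no library could be left out. Counts of repair genes past 2-fold moved as follows. With a pseudocount of 0.1 the count lower with arsenite in wild type was 10, beside 43.4% of all genes. That lower in untreated null cells was 9, beside 21.0%. Those for the difference of effects were 0 higher and 8 lower, beside 16.3 and 20.7%. A filter of 5 RPKM left 24 of the 35 genes and 2 lower in untreated null cells, beside 14.8% of all genes. Centring gave 8 higher with arsenite in wild type (21.6% of all genes) and 6 higher and 7 lower in null cells (23.4 and 23.8%). It gave 4 lower in null against wild type with arsenite (9.64%). Removing the length trend gave 8 higher and 2 lower in wild type (15.9 and 15.3%). In null cells it gave 4 higher and 6 lower (19.5 and 21.5%), and 4 were lower in null against wild type with arsenite (9.03%). It turned Brca2 to 0.15 in wild type and 0.24 in null cells, and Lig3 to 0.20 in null cells. Equal RPKM sums, added after seeing the data, moved the median of all genes to -1.27 and -1.15 and gave 0 higher and 18 lower with arsenite in wild type, 1 higher and 22 lower in null cells, and 7 lower in untreated null cells, beside 5.38 and 58.8%, 7.02 and 54.4%, and 19.5% of all genes. The 2 arsenite libraries have 5.81 and 5.45 times fewer reads than their controls, and the lowest read counts there limit Atm, Palb2 and Xrcc2, with 12, 17 and 16 reads in the null arsenite library. Beyond these, the cause of each shift was not tested.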
